A study of Mus musculus with 4 samples.

Results

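Glucocorticoid response genes were followed in mouse lung cells sorted as smooth muscle cells (SMCs) after deletion of *Tet3*. This gene encodes an enzyme that oxidizes 5-methylcytosine in DNA. The set consists of 10 genes chosen by symbol: the glucocorticoid receptor gene *Nr3c1* and 9 genes known to be induced through it, *Fkbp5*, *Tsc22d3*, *Errfi1*, *Sgk1*, *Cebpd*, *Klf9*, *Zbtb16*, *Pdk4* and *Sult1a1*. All 10 were among the 21462 genes of the deposited table and among the 16659 that had a mean of at least 10 and were tested. They were selected by symbol, with earlier results of these data known, so their counts and those of the lists below are descriptions.

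RNA was sequenced from 4 libraries, 2 control (labelled WT) and 2 Tet3 mutant (labelled Mut), which the study describes as independent animals. The mutants carried Tet3 fl/fl together with an α-SMA-ERT2Cre transgene, so that tamoxifen deleted the gene in cells with an active smooth muscle actin promoter, and a ROSA26 tdTomato reporter by which the cells were sorted. By the study's methods, controls lacked the floxed allele but carried the Cre and/or the reporter, and mice were given tamoxifen from young adulthood. All mice were on the C57BL/6 background, CD45+ and Ter119+ cells were depleted before the sort, and the labels give no age, sex, batch or time of day. Neither the labels nor the methods name a glucocorticoid treatment, so the levels below are those without a stated hormone treatment.

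Glucocorticoids are steroid hormones of the adrenal gland that enter cells and bind a receptor held ready in the cytoplasm by HSP90 and its co-chaperones. The bound receptor moves to the nucleus, where it binds DNA, often at a palindrome called the glucocorticoid response element, and induces genes that limit the hormone's own action and restrain inflammation. Because corticosterone in mice rises and falls with the time of day, with stress and with feeding, the same genes also follow these conditions. In airway smooth muscle this pathway is known as a target of inhaled steroids used against asthma.

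Values are normalized counts, which the authors scaled between libraries. Deposited totals lay between 6805272 and 7164573. *Tet3* itself was at 1847 and 1926 in controls against 1534 and 1444 in mutants, always given as replicate 1 and then replicate 2. Control replicate 2 stood apart from the other libraries. It had 2 normalized counts of the X-linked transcript *Xist*, against 5214 to 6781 in the other libraries, and 774 of the Y-linked gene *Ddx3y*, which was listed at 0 in the others. By these genes control replicate 2 was male and the other libraries female, so sex was not balanced between the groups. Fold changes given without control replicate 2 compare libraries of 1 sex. Smooth muscle markers were present in every library, with summed levels of 5108 and 6747 in controls against 7952 and 7612 in mutants. Markers of other lung cells were present as well. Those of alveolar type 2 cells, the epithelial cells that make surfactant, summed to 17014 and 25448 in controls against 12254 and 15344 in mutants. The 8 fibroblast markers summed to 19821 and 16940 in controls against 20528 and 18499 in mutants. The 8 endothelial markers summed to 16367 and 14236 in controls against 16952 and 15520 in mutants. The levels below are therefore those of whole libraries and not of SMCs alone.

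No member passed the adjusted threshold. By limma, 0 of 10 had an adjusted p under 0.05, as was the case for 0% of all 16659 genes tested, and 2 members, *Errfi1* and *Cebpd*, had an unadjusted p under 0.05, both lower in the mutants. Over all genes, 6.68% had such a p, 2.85% on the lower side and 3.83% on the higher side, where no member stood. In 5 members the mutant values did not overlap the control values, where 39% of all genes showed this. *Fkbp5* and *Zbtb16* lay above, as did 19.6% of genes, and *Tsc22d3*, *Errfi1* and *Cebpd* below, as did 19.5%. The median log2 fold change of the members, Tet3 mutant over control on log2(value + 1), was -0.02, against -0.01 for all genes tested. Its sign varied with the setting: it was 0.03 with equal library totals and with quantile normalization, and leaving out 1 library gave -0.22 (without Tet3 mutant replicate 2), -0.19 (without control replicate 2), 0.06 (without Tet3 mutant replicate 1) and 0.09 (without control replicate 1), while the median of all genes stayed between -0.015 and 0.041. Fold changes lay on both sides of 0, with 6 of 10 members below it, as were 51% of all genes.

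**Figure D1:**
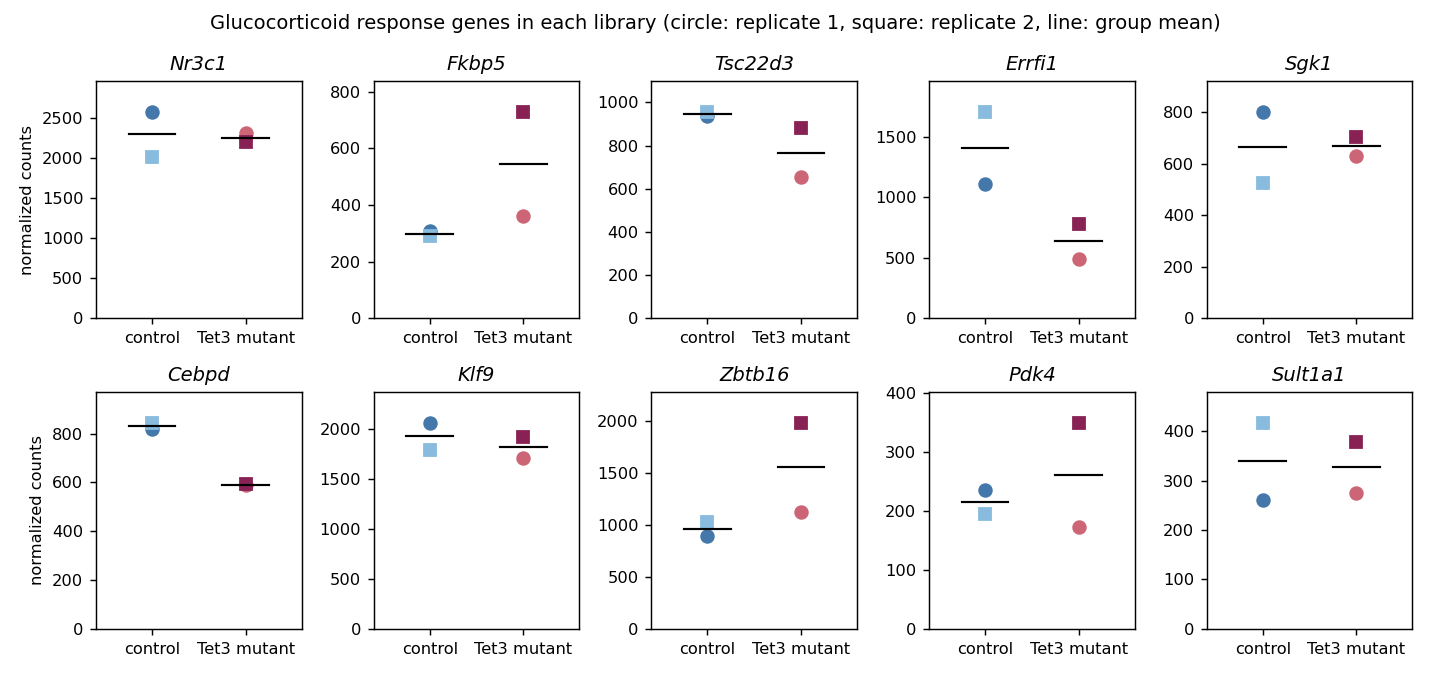
Normalized counts of each member (vertical axis from 0, a scale of its own per gene) in the 2 control and 2 Tet3 mutant libraries; circles are replicate 1, squares are replicate 2 and lines are group means. Cebpd values lay close together within groups, 820 and 845 against 588 and 595, while 1 mutant library, replicate 2, set the high means of Fkbp5 (729) and Zbtb16 (1982).

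**Figure D2:**
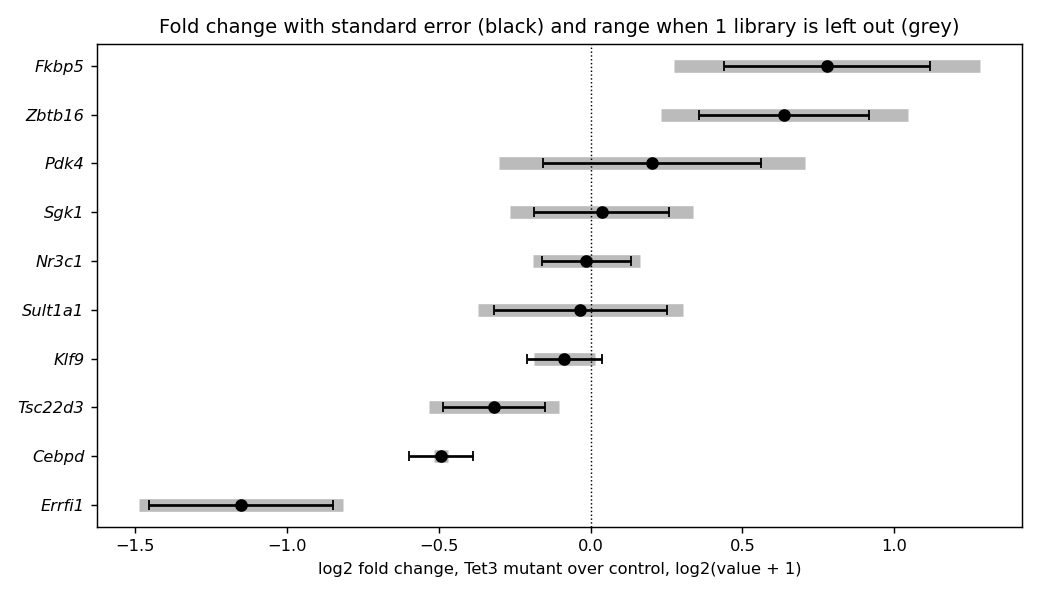
Log2 fold change of each member, Tet3 mutant over control, as black points with the moderated standard error, and as grey bars the range of the same value when each of the 4 libraries was left out. The grey bars of Errfi1, Cebpd, Tsc22d3, Fkbp5 and Zbtb16 stay on 1 side of 0, and those of the other 5 members cross it. Groups that do not overlap, as in these first 5, cannot change sign when 1 library is left out.

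The receptor was examined first. *Nr3c1* (ENSMUSG00000024431, chromosome 18, 39410545 to 39519421, GRCm38) had 2572 and 2011 normalized counts in controls against 2308 and 2199 in mutants. Both mutant libraries lay between the 2 controls. The log2 fold change came to -0.01 ± 0.15 (SE; limma, adjusted p 0.987), and its 95% confidence interval ran from -0.39 to 0.36. Per kilobase of exon, *Nr3c1* had 296 normalized counts averaged over the libraries, above 96.5% of the genes tested. The mineralocorticoid receptor gene *Nr3c2*, whose product binds the same hormones, had 76.0 per kilobase. Its values were 508 and 563 in controls against 447 and 450 in mutants, a log2 fold change of -0.25 ± 0.12 (SE; limma, adjusted p 0.681).

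Supply of active hormone inside the cell depends on enzymes that interconvert inert and active steroid and on transporters that pump it out. *Hsd11b1*, which regenerates active hormone, had 1111 and 824 normalized counts in controls against 1014 and 948 in mutants. Its mutant values lay between the controls, with a log2 fold change of 0.04 ± 0.17 (SE). *Hsd11b2*, which inactivates the hormone, was scarce at 10.2 per kilobase against 229 for *Hsd11b1*, and had 22 and 20 in controls against 10 and 23 in mutants. Its log2 fold change of -0.44 was the lowest of the 6 genes of receptor and ligand supply, and that of the efflux pump gene *Abcb1b* was the highest at 0.26. None of the 6 had an unadjusted p under 0.05. Their median was -0.05, 0.03 after quantile normalization, and between -0.17 without control replicate 2 and 0.07 without control replicate 1.

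Receptor chaperones held genes with small unadjusted p. *Hsph1*, which encodes an HSP110 chaperone that acts as exchange factor for HSP70, had 581 and 474 normalized counts in controls against 932 and 915 in mutants. *Stip1*, which encodes the HOP protein that passes the receptor from HSP70 to HSP90, had 444 and 475 in controls against 577 and 651 in mutants. In both genes each mutant library lay above each control. Log2 fold changes were 0.81 ± 0.14 and 0.42 ± 0.13 (SE), at unadjusted p of 0.00193 and 0.0211, and neither passed the limma adjusted threshold (adjusted p 0.681 for each). Markers of ciliated cells were also higher in both mutants, with summed levels of 1859 and 2001 in controls against 3453 and 2527 in mutants, 6 of 6 above 0 and none listed at 0. This was not particular to ciliated cells. Summed markers of smooth muscle, macrophages, T cells, neutrophils and cardiomyocytes were higher in both mutants too. The alveolar type 2 sum was lower in both, and the other marker sums overlapped. The part of any of these cells in the 2 results was not tested. The other 8 of the 10 chaperone genes had log2 fold changes between -0.28, in the co-chaperone gene *Fkbp4*, and 0.19, and the median of the list was 0.06, from -0.03 without control replicate 1 to 0.15 without control replicate 2. Of 11 coregulators, which link the bound receptor to chromatin, 0 had an unadjusted p under 0.05. A log2 fold change below 0 was seen in 8, as in 51% of all genes. In 6 both mutants lay below both controls, as in 19.5% of all genes. Tet3 mutant replicate 2 was the lowest library in 8, as in 20.8%. Log2 fold changes of the coregulators ran from -0.23 in the acetyltransferase gene *Ep300* to 0.06 in the coactivator gene *Ncoa3*, with a median of -0.11, or -0.03 with quantile normalization.

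Of the feedback genes, *Fkbp5* and *Tsc22d3* lay on opposite sides. *Fkbp5* (ENSMUSG00000024222, chromosome 17, 28399094 to 28517527) encodes a co-chaperone that lowers the receptor's affinity for hormone and is one of its best-known induced targets. It had 309 and 289 normalized counts in controls against 362 and 729 in mutants. Both mutants lay above both controls, but Tet3 mutant replicate 2 was 2.01 times replicate 1. The mean was 299 ± 14.1 in controls against 545.5 ± 259 in mutants (SD, n = 2 each), and the log2 fold change came to 0.78 ± 0.34 (SE; limma, unadjusted p 0.0691, adjusted p 0.681). Without Tet3 mutant replicate 2 it was 0.28, and without Tet3 mutant replicate 1 it was 1.28. Without control replicate 2 it was 0.73. *Tsc22d3* (ENSMUSG00000031431, chromosome X, 140539528 to 140600659), which encodes the anti-inflammatory leucine zipper protein GILZ, had 936 and 956 in controls against 654 and 881 in mutants. The controls were close together and both mutants lay below them, Tet3 mutant replicate 1 by more. Its log2 fold change came to -0.32 ± 0.17 (SE; limma, adjusted p 0.689), and leaving out Tet3 mutant replicate 1 brought it to -0.10. Without control replicate 2 it was -0.30.

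Among signalling genes, *Errfi1* differed most. *Errfi1* (ENSMUSG00000028967, chromosome 4, 150853919 to 150868892) encodes MIG6, an inhibitor of the epidermal growth factor receptor. It had 1113 and 1707 normalized counts in controls against 491 and 783 in mutants. Both mutants lay below both controls, although the libraries of each group also lay apart: the gap between the controls was 0.62 on the log2 scale and that between the mutants 0.67. The mean was 1410 ± 420.0 in controls against 637 ± 206 in mutants (SD, n = 2 each). The log2 fold change came to -1.15 ± 0.30 (SE), with a 95% confidence interval from -1.93 to -0.38 (limma, unadjusted p 0.0122, adjusted p 0.681). Of all genes tested, 2.49% had a lower fold change. It stayed between -1.49 and -0.82 when each library was left out. The larger sizes came without control replicate 1 (-1.46) and without Tet3 mutant replicate 2 (-1.49). Without control replicate 2, which leaves libraries of 1 sex, the log2 fold change was -0.84.

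Summed markers of alveolar type 2 cells moved with *Errfi1*. Their summed level was 17014 and 25448 in controls against 12254 and 15344 in mutants, so that control replicate 2 was highest and Tet3 mutant replicate 1 lowest for both. All 10 markers had a log2 fold change below 0, with a median of -0.60. This median ran from -0.84 without Tet3 mutant replicate 2 to -0.32 without control replicate 2. In 8 of 10 both mutants lay below both controls, as in 19.5% of all genes. *Sftpc* (825 and 1254 in controls against 904 and 780 in mutants) and *Lyz2* (1120 and 1361, 1197 and 1033) overlapped and were lowest in Tet3 mutant replicate 2. None of the 10 was at 0 in any library. The 2 genes with profiles most like *Errfi1* over the 4 libraries, of 12056 compared, were *Cxadr* (442 and 732 in controls against 196 and 352 in mutants) and *Tfrc* (890 and 1525, 420 and 726), at root mean square distances of 0.0741 and 0.0793 on the log2 scale. Both genes were selected for closeness in the same 4 libraries, so the matches are descriptions. The part of alveolar type 2 cells in the *Errfi1* result was not tested. In bulk libraries, fewer cells of a type and less RNA per cell cannot be told apart.

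**Figure D3:**
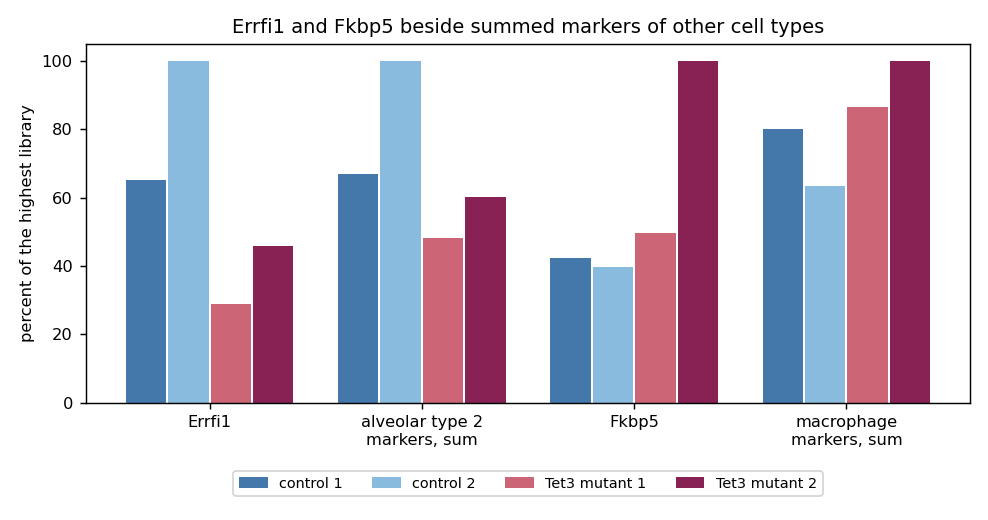
Errfi1, the summed alveolar type 2 markers, Fkbp5 and the summed macrophage markers in each library, as a percent of the library in which each was highest (bars start at 0). Errfi1 and the alveolar type 2 markers were both highest in control replicate 2 and lowest in Tet3 mutant replicate 1 (28.8% and 48.2% of the highest), and Fkbp5 and the macrophage markers both highest in Tet3 mutant replicate 2 and lowest in control replicate 2 (39.6% and 63.3%).

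*Sgk1* (ENSMUSG00000019970, chromosome 10, 21882184 to 21999903) encodes a kinase that regulates ion channels and cell survival. It had 800 and 526 normalized counts in controls against 629 and 704 in mutants. Both mutants lay between the controls, of which replicate 2 was the lowest library, and the log2 fold change came to 0.04 ± 0.22 (SE), with a 95% confidence interval from -0.53 to 0.61 (limma, adjusted p 0.972). The direction depended on the controls, at 0.34 without control replicate 1 and -0.27 without control replicate 2.

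Promoter windows were searched for the response element. RefSeq windows (GRCm38.p6) of 250 bases before to 50 after the start were given for 7 of the 10 members, 15 windows in all. The half-site AGAACA was looked for on either strand, and the full element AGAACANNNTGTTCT, which contains the half-site on both strands, with up to 2 mismatches in its 12 fixed letters. The half-site was found in 5 of these 15 windows, against 19% of 32851 windows genome-wide. By gene it was found in 3 of the 7 members, *Sgk1*, *Sult1a1* and *Tsc22d3*, against 21.3% of 27025 genes, and *Sgk1* alone had 6 windows and *Tsc22d3* 3. A full element was found in 3 windows, of 2 members, *Sgk1* and *Sult1a1*, against 1.84% of all windows and 2.1% of genes. Among these 3 were windows of *Sgk1* with 0 and with 2 mismatches. No full element stood in the windows of *Fkbp5*, *Errfi1*, *Klf9*, *Pdk4* or *Tsc22d3*, which says only that this pattern is not in these windows. The stretches below are shown because they hold the matches closest to the palindrome in *Sgk1* and *Sult1a1*; they run 5′ to 3′ on the gene's strand, with matches to the full element or to a separate half-site in capitals. The *Sgk1* stretch is the 250 bases before the start of 1 of its transcripts, at chr10:21993640-21993889 on the plus strand, and its element matches every fixed letter. The *Sult1a1* stretch, at chr7:126676433-126676532 on the minus strand, ends before the first annotated exon base, and its element has 2 mismatches.
Sgk1 promoter: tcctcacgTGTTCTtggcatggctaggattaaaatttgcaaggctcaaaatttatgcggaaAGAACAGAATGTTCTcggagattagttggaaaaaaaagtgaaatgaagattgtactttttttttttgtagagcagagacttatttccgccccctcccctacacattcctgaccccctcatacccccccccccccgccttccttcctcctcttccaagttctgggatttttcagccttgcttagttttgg
Sult1a1 promoter: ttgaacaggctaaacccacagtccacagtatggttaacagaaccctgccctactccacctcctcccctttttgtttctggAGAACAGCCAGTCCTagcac

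A match in sequence is a description and not a measured binding site. The levels of both genes overlapped between the groups, and no binding or methylation data were used here.

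*Sult1a1* (ENSMUSG00000030711, chromosome 7, 126672865 to 126676432) encodes a sulfotransferase that conjugates phenols and steroids. It had 261 and 417 normalized counts in controls against 275 and 378 in mutants. Replicate 2 was the higher library in each group, and the groups overlapped. Its log2 fold change came to -0.03 ± 0.29 (SE; limma, adjusted p 0.981), and ran from -0.37 without control replicate 1 to 0.30 without control replicate 2. Exons of *Sgf29* on the opposite strand cover 4.05% of its exon bases, and the use of strand in counting was not stated.

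*Pdk4* (ENSMUSG00000019577, chromosome 6, 5483351 to 5496309) encodes a kinase that shuts down pyruvate dehydrogenase in fasting. Its values were 235 and 194 normalized counts in controls against 173 and 349 in mutants. The mutants enclosed the controls, with Tet3 mutant replicate 2 the highest of the 4 libraries and replicate 1 the lowest. The log2 fold change of 0.20 ± 0.36 (SE; limma, adjusted p 0.891) was -0.30 without Tet3 mutant replicate 2 and 0.71 without replicate 1.

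The transcription factor genes gave the member with the tightest replicates. *Cebpd* (ENSMUSG00000071637, chromosome 16, 15887286 to 15891031) encodes C/EBPδ, a factor induced early by glucocorticoids and by inflammatory cytokines. It had 820 and 845 normalized counts in controls against 588 and 595 in mutants. Both mutants lay below both controls. The gap on the log2 scale was 0.04 between controls and 0.02 between mutants, where the median gaps of all genes tested were 0.28 and 0.18. A gap between 2 libraries is a poor measure of the spread between animals. The mean was 832.5 ± 17.7 in controls against 591.5 ± 4.95 in mutants (SD, n = 2 each). The log2 fold change came to -0.49 ± 0.10 (SE), with a 95% confidence interval from -0.76 to -0.23 (limma, unadjusted p 0.00504, adjusted p 0.681). It stayed between -0.51 and -0.47 when each library was left out, the latter without control replicate 2. This range follows from the small gaps within groups. By unadjusted p *Cebpd* ranked 72 of the 16659 genes. The gene *Spidr* on the opposite strand shares 15% of the exon bases of *Cebpd* and had 272 and 336 in controls against 290 and 298 in mutants. The summed alveolar type 2 markers were lower in both mutants too, and their part in this result was not tested.

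*Zbtb16* (ENSMUSG00000066687, chromosome 9, 48654297 to 48836222) encodes the zinc finger repressor PLZF. It had 897 and 1028 normalized counts in controls against 1127 and 1982 in mutants. Both mutants lay above both controls, Tet3 mutant replicate 1 by little and replicate 2 at 1.76 times the next highest library. The mean was 962.5 ± 92.6 in controls against 1554 ± 605 in mutants (SD, n = 2 each). Its log2 fold change came to 0.64 ± 0.28 (SE; limma, unadjusted p 0.0707, adjusted p 0.681), and 0.23 without Tet3 mutant replicate 2. Without control replicate 2 it was 0.74.

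*Klf9* (ENSMUSG00000033863, chromosome 19, 23141226 to 23168134) encodes a Krüppel-like factor induced by glucocorticoid and thyroid hormone. It had 2061 and 1792 normalized counts in controls against 1709 and 1918 in mutants, and the groups overlapped. The log2 fold change came to -0.09 ± 0.12 (SE), with a 95% confidence interval from -0.41 to 0.23 (limma, adjusted p 0.864). It was 0.015 without control replicate 1.

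Averaged over the 4 libraries and divided by exon length, *Klf9* was the most abundant member at 388 normalized counts per kilobase, followed by *Nr3c1* at 296, *Errfi1* at 286, *Zbtb16* at 238, *Sult1a1* at 221, *Tsc22d3* at 197, *Cebpd* at 190, *Sgk1* at 136, *Pdk4* at 67.7 and *Fkbp5* at 44.6. Between neighbours in this order the ranges over the 4 libraries were separate for *Klf9* (355 to 428) above *Nr3c1* (262 to 335) and for *Sgk1* (107 to 163) above *Pdk4* (49.3 to 99.4). Other neighbours overlapped, and *Errfi1* had the widest range, 137 to 477. The order pools both groups, and *Errfi1* averaged 394 per kilobase in controls against 178 in mutants, so that in controls it stood above *Nr3c1* at 298 and close to *Klf9* at 400.1. *Fkbp5*, the least abundant per kilobase, still lay above 44.2% of the genes tested.

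Tet3 mutant replicate 2 was high for part of the set. It exceeded each of the other 3 libraries by more than 1.5-fold in *Fkbp5* and *Zbtb16*, which is 2 of 10 members and was seen in 1.1% of all genes tested, a criterion chosen after the values were seen. In *Pdk4* it was 1.49 times the next highest library. By the same criterion *Errfi1* held both extremes: control replicate 2 exceeded every other library, as in 7.56% of genes, and Tet3 mutant replicate 1 fell short of every other, as in 2.86%. Tet3 mutant replicate 1, in contrast, was above the gene's own mean over the 4 libraries in 1 of 10 members and was the lowest library in 5, where 23.9% of all genes had it lowest. The remaining libraries lay above the gene's mean in 7 (control replicate 1), 4 (control replicate 2) and 7 (Tet3 mutant replicate 2) of 10 members. The share of all genes was not computed for these counts. Over all genes tested, the median deviation from the mean lay between -0.001 (Tet3 mutant replicate 1) and 0.006 (Tet3 mutant replicate 2) on the log2 scale. The 2 mutants differed by over 0.5 on the log2 scale in 4 members, as did 18.4% of all genes, and the controls in 3, as did 29.5%.

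**Figure D4:**
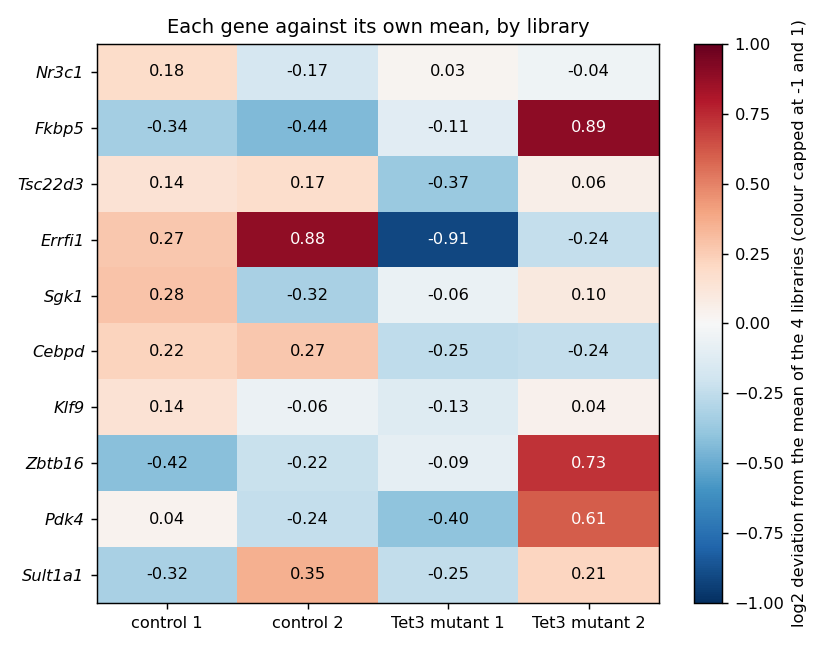
Deviation of each library from the gene's mean over the 4 libraries, in log2(value + 1), for the 10 members; red is above and blue below the mean, with the value printed in each cell. Tet3 mutant replicate 2 lay 0.89, 0.73 and 0.61 above the mean for Fkbp5, Zbtb16 and Pdk4, and Errfi1 ran from 0.88 in control replicate 2 to -0.91 in Tet3 mutant replicate 1.

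Genes with profiles most like *Fkbp5* over the 4 libraries, of 12056 compared, were *Ccl8* (73 and 61 normalized counts in controls against 84 and 159 in mutants) and *Ms4a6d* (93 and 76, 95 and 197), at root mean square distances of 0.0656 and 0.0806 on the log2 scale. For *Zbtb16* they were *Susd3* (45 and 50, 50 and 90) at 0.0751 and *H1f5* (48 and 58, 56 and 115) at 0.0814. These genes were selected for closeness in the same 4 libraries, so the matches are descriptions. Summed macrophage markers were also highest in Tet3 mutant replicate 2, as were 6 of the 9 singly. *Marco* (119 and 17 in controls against 77 and 82 in mutants) and *Chil3* (776 and 136, 610 and 757) were highest in control replicate 1. *Siglecf* was at 188 in both control replicate 1 and Tet3 mutant replicate 2. The 9 markers summed to 6412 and 5067 in controls against 6920 and 8005 in mutants. All 9 had a log2 fold change above 0, with a median of 0.43. This median ran from 0.25 without control replicate 2 to 0.63 without Tet3 mutant replicate 1. In 6 of 9 markers both mutants lay above both controls, as in 19.6% of all genes, and none was at 0 in any library. Their part in the results for *Fkbp5* and *Zbtb16* was not tested.

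Targets of the lipid-sensing PPAR receptors or of fasting, to which *Pdk4* also responds, were mostly highest in the same library. Of 12 such genes, 10 had their highest value in Tet3 mutant replicate 2, as did 22.4% of all genes tested, and the median log2 fold change was 0.14. Leaving out replicate 2 of either group gave 0.06, and it was 0.22 without control replicate 1 and 0.33 without Tet3 mutant replicate 1. *Fabp4*, a fatty acid binding protein gene, had 59 and 43 normalized counts in controls against 81 and 120 in mutants, a log2 fold change of 0.96 ± 0.33 (SE; limma, unadjusted p 0.0329, adjusted p 0.681). *Fabp4* was the only gene of the list with an unadjusted p under 0.05. The mitochondrial carrier gene *Ucp3* (29 and 3 in controls against 26 and 33 in mutants) had the highest log2 fold change at 1.47, set by control replicate 2, and the thioesterase gene *Acot2* (229 and 237, 183 and 248) the lowest at -0.13.

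Further induced targets lay on both sides of 0. Of 24 tested, 0 passed the limma adjusted threshold. An unadjusted p under 0.05 was seen in 2, both lower, against 2.85% of all genes lower at that p. The median log2 fold change was -0.09, or -0.17 without control replicate 1. *Per1*, a clock gene with a well-known response to glucocorticoids, had 1429 and 1336 normalized counts in controls against 596 and 761 in mutants. *Lcn2*, which encodes an iron-scavenging lipocalin made by epithelium and neutrophils, had 423 and 585 in controls against 158 and 352 in mutants. Both genes were lower in each mutant than in each control, with log2 fold changes of -1.04 ± 0.15 and -1.07 ± 0.41 (SE; limma, unadjusted p 0.000944 and 0.0462, adjusted p 0.681 for each). *Lcn2* followed the alveolar type 2 markers in its order of libraries, highest in control replicate 2 and lowest in Tet3 mutant replicate 1, and their part in it was not tested. *Dusp1*, a phosphatase gene that restrains MAP kinases, had 1253 and 1464 in controls against 1185 and 1029 in mutants (log2 fold change -0.29 ± 0.14, SE). *Rasd1* had the lowest fold change at -1.16 from low values (9 and 27 in controls against 7 and 6 in mutants), and *Angptl4*, which encodes a lipase inhibitor, the highest at 0.67 (622 and 265 in controls against 538 and 777 in mutants).

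Clock genes lay on both sides of 0. Of 14 tested, 4 had a log2 fold change above 0 and 10 below, and 5 had an unadjusted p under 0.05, all lower, against 2.85% of all genes lower at that p, and 0 passed the adjusted threshold. Those besides *Per1* were the period genes *Per2* (673 and 545 normalized counts in controls against 337 and 440 in mutants) and *Per3* (1091 and 754, 541 and 600), the cryptochrome gene *Cry2* (899 and 1065, 746 and 802) and *Ciart* (61 and 50, 23 and 28), an inhibitor of the clock's activators. Log2 fold changes of these 4 were -0.65, -0.67, -0.34 and -1.09, and each had a limma adjusted p of 0.681. The activator gene *Arntl* had the highest at 0.44, with 185 and 444 in controls against 496 and 304 in mutants. The 2 controls differed widely in it, and the time of day at which animals were killed was not given in the sources used here. The median of the list was -0.27, and ran from -0.16 without control replicate 1 to -0.57 without control replicate 2.

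Genes that glucocorticoids repress gave 1 small unadjusted p. Of 10 listed, 9 were tested, and *Il6* was below the minimum (14 and 8 normalized counts in controls against 3 and 5 in mutants). *Mmp13*, a collagenase gene, had 16 and 19 in controls against 47 and 40 in mutants, a log2 fold change of 1.27 ± 0.35 (SE; limma, unadjusted p 0.0150, adjusted p 0.681). Each mutant lay above each control, from low values. *Ptgs2*, which encodes the prostaglandin-producing enzyme COX-2, had the lowest fold change at -0.60 with 221 and 472 in controls against 198 and 228 in mutants. The median of the 9 was 0.22, and it was 0.46 without Tet3 mutant replicate 2, 0.09 without control replicate 2 and -0.04 without Tet3 mutant replicate 1.

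Dissociation stress genes, which overlap with glucocorticoid targets in *Dusp1*, respond to the warm enzymatic digestion used to free cells. All 12 had a log2 fold change below 0, with a median of -0.28, and in 9 Tet3 mutant replicate 2 was the lowest library, as in 20.8% of all genes. Only *Fosb*, an AP-1 factor gene, had an unadjusted p under 0.05 (848 and 1162 normalized counts in controls against 646 and 256 in mutants), at a log2 fold change of -1.29 (limma, adjusted p 0.681), and *Hspa1a* was nearest to 0 at -0.01. Without Tet3 mutant replicate 2 the median was -0.04. The part of handling in the levels of *Dusp1* and of the members was not tested.

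Relatives of the members were compared to see whether a difference stayed with 1 gene of a family. Of 19 listed, 17 were in the table and 16 were tested, with a median log2 fold change of -0.19, which was -0.04 without Tet3 mutant replicate 1 and -0.09 without control replicate 2. The *Pdk4* relative *Pdk1* had 283 and 341 normalized counts in controls against 229 and 233 in mutants, a log2 fold change of -0.43 ± 0.16 (SE; limma, unadjusted p 0.0444, adjusted p 0.681). It was the only relative with an unadjusted p under 0.05. *Cebpa*, a relative of *Cebpd* that is also active in alveolar type 2 cells, had the lowest fold change at -0.71 (805 and 1424 in controls against 525 and 813 in mutants). *Sult1d1*, a relative of *Sult1a1*, had the highest at 1.03 (68 and 29, 77 and 109). The difference between a member and its relative was not tested.

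**Figure D5:**
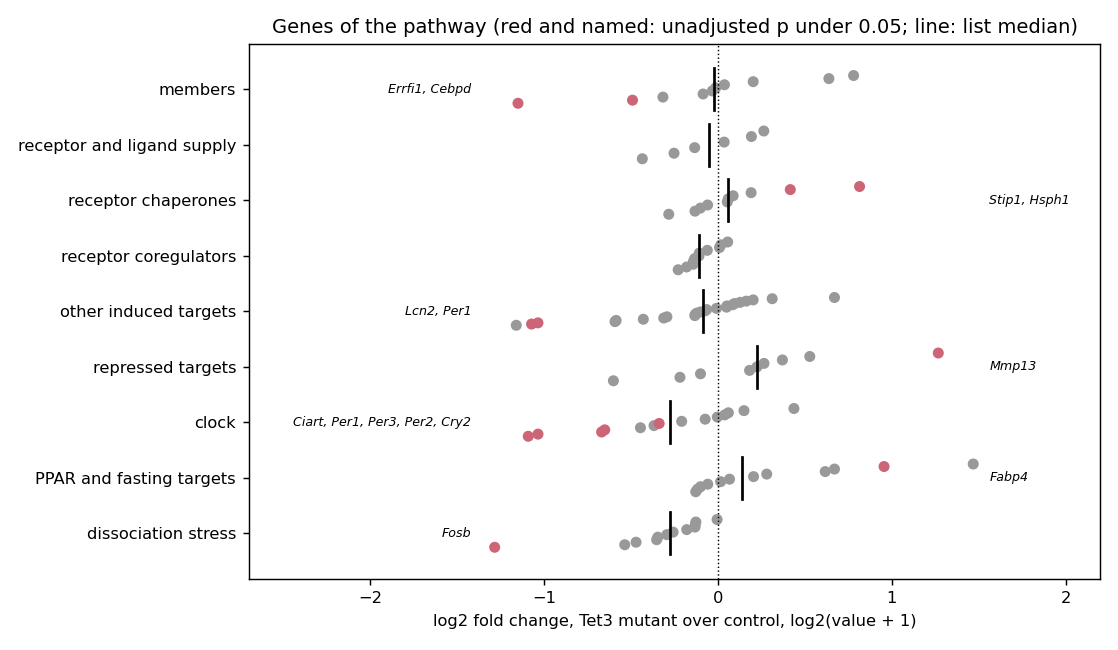
Log2 fold change (Tet3 mutant over control) of each tested gene in the members and in 8 lists of pathway and related genes, 1 dot per gene; red dots have an unadjusted p under 0.05 and are named at the side, and black lines are list medians. The medians lie between -0.28 (dissociation stress) and 0.22 (repressed targets), and no gene shown passed the adjusted threshold.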

How the data were processed

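RNA was isolated from tdTomato+ lung cells that were sorted as SMCs. It was depleted of ribosomal RNA and made into stranded total RNA libraries, sequenced as single-end reads. By the authors' methods and the submitters' processing notes, trimming used Trimmomatic 0.36, alignment to mm10 (GRCm38) used STAR 2.6.0c, and exonic reads per gene were counted by featureCounts (Subread 1.6.0) without those mapped to several places or genes; use of strand was not stated. The deposited table holds a score, not raw counts: per-gene counts that the authors normalized with DESeq2 and rounded to whole numbers, so no count model was fitted and sequencing depth was not taken from them.

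From these, log2(value + 1) was modelled for genotype with limma 3.58.1 in R 4.3.3 (mean-variance trend, two-sided, Benjamini-Hochberg over all 16659 genes whose mean reached 10, threshold 0.05). Fold changes on this scale understate those of low genes. An exact permutation test of 2 against 2 cannot go below 0.333. Exon lengths came from GENCODE M21, in which all 10 members had the same coordinates. Promoter windows were matched by symbol.

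The members and lists were chosen with earlier results of these data known. Named from the lists were genes with an unadjusted p under 0.05, *Nr3c2*, *Hsd11b1*, *Per1* and *Dusp1*, and the highest and lowest fold change per list, except that *Il6* was named after its values were seen. Nearest profiles, by centred log2 distance, were sought for members with an SD of at least 0.5 among genes whose mean reached 50. The 14 alternatives covered pseudocount, mean minimum, scaling, the trend, robust estimation, the replicate block and each library left out.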

Additional observations from a re-analysis of the deposited data

How the results depend on the processing

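Over the 10 alternatives that kept all libraries, 8 of 10 members kept their direction, and the number of members called stayed at 0 (smallest limma adjusted p 0.153, *Errfi1* with the replicate block). *Nr3c1* reversed to 0.035 with equal library totals and 0.090 with quantile normalization, and *Sult1a1* to 0.015 with equal totals, which moved the median of all genes from -0.01 to 0.04. Without the mean-variance trend 1 gene of all tested was called, no member; the cause was not tested. Replicate numbers were shared between groups, but over only 2 pairs, and deviations of same-numbered samples correlated by 0.13 across 16659 genes, so they are not shown to pair. With the replicate block 4 members had an unadjusted p under 0.05, *Errfi1*, *Cebpd*, *Zbtb16* and *Fkbp5*, instead of 2, as the share of all genes with such a p went from 6.68% to 9.83%.

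Leaving out 1 library at a time, where the lone library was assumed to vary like the other group, 5 of 10 members kept their direction. They were the members whose groups did not overlap, which fixes the direction in advance, and 39% of all genes had such groups. The other members ranged from -0.19 to 0.015 (*Klf9*), -0.19 to 0.16 (*Nr3c1*), -0.30 to 0.71 (*Pdk4*), -0.27 to 0.34 (*Sgk1*) and -0.37 to 0.30 (*Sult1a1*). The number of members with an unadjusted p under 0.05 was 2 without control replicate 1 (20.2% of all genes), 1 without control replicate 2 (5.37%), 2 without Tet3 mutant replicate 1 (1.64%) and 3 with Tet3 mutant replicate 2 left out (2.49%). With 2 libraries per group, intervals of single members are wide.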
